A study of Mus musculus with 30 samples.

Results

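The 9 genes described here are those by which microglia, the resident macrophages of the brain, are recognised in their resting state: P2ry12, P2ry13, Tmem119, Cx3cr1, Siglech, Sall1, Gpr34, Olfml3 and Fcrls. They were chosen by name from the array's table of probe sets and genes, and all 9 were measured, each by 1 probe set, out of 19938 genes in all. In all 30 arrays were used, 22 of mouse brain tumors raised by injecting a Cre construct and 8 of normal brain. The tumor groups were GFAP-CRE in the cortex (GFAP cortex tumors, 4 arrays), SYN1-CRE in the cortex (SYN1 cortex tumors, 4), GFAP-CRE in the hippocampus (GFAP hippocampus tumors, 7), NES-CRE in the hippocampus (NES hippocampus tumors, 4) and GFAP-CRE in the subventricular zone (GFAP SVZ tumors, 3). Normal cortex and normal hippocampus had 4 arrays each. GFAP is a gene of astrocytes and of some neural stem cells, SYN1 of neurons and NES of neural progenitors, so the promoter sets in which cells Cre was made, and not which cells were measured. Strain, age, sex, the alleles that Cre acted on and the time after injection are not given in the labels used here, and no normal SVZ sample was analysed, so SVZ tumors were set against the mean of both normal tissues.

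Microglia in undisturbed brain survey the tissue with fine processes and hold a gene programme that depends on TGF-beta from their surroundings, on signalling through the CSF1 receptor and on transcription factors such as PU.1 (the product of Spi1), IRF8 and SALL1. When they are activated, in injury or around a tumor, they keep general macrophage genes and can lose genes of the resting programme, while macrophages that enter from the blood carry the general genes and little of that programme. Whole tumor pieces hold tumor cells, microglia, blood-derived macrophages and remaining brain together. In such samples fewer microglia and less RNA of a gene in each microglial cell cannot be told apart.

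The values were log2 signal per probe set, from 0.133 to 16.07 over all probe sets, with array medians between 7.03 and 7.30. On this scale a difference of 1 is a 2-fold difference, and low signal includes background, so levels of different genes were not set against each other. On the second principal component over all genes, 4 arrays stood apart at 55.9 to 74.7, namely GFAP cortex tumor 1 and GFAP hippocampus tumors 5, 6 and 7, and results that rest on them are given with and without them. A gene was called where the limma fit over all 30 arrays gave a Benjamini-Hochberg adjusted p under 0.05 over 19938 genes. The labels do not state whether each array of a group is a different animal; the p-values therefore reflect array-to-array spread, part of which may be technical. Pan-myeloid genes, carried by microglia and blood-derived macrophages alike, show that the arrays held myeloid RNA: of the 10 measured, 8 to 10 rose in each tumor group.

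Promoter sequences from RefSeq on GRCm38.p6 (250 bases before to 50 after the transcript start, written 5′ to 3′ on the gene's strand) were found for 7 of the 9 genes, all but Tmem119 and Gpr34. Promoters of 4 genes are shown because the results turn on these genes: P2ry12 and P2ry13 are neighbours on chromosome 3 whose signals parted in some tumors, Siglech fell in 2 tumor groups, and Olfml3 rose in 1. Capitals mark GAGGAA or AGGAAGT, letters of the site bound by PU.1 and related ETS factors, searched on both strands. The 2 motifs can overlap, and a match on the other strand appears as its reverse complement.
P2ry12, chr3:59262936-59263235, minus strand: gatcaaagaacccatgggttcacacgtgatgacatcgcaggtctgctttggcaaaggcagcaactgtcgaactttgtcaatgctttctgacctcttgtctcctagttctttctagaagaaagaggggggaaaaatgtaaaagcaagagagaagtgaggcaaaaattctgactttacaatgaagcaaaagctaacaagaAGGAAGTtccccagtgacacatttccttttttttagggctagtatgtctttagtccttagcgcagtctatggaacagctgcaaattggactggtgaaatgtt
P2ry13, chr3:59210833-59211132, minus strand: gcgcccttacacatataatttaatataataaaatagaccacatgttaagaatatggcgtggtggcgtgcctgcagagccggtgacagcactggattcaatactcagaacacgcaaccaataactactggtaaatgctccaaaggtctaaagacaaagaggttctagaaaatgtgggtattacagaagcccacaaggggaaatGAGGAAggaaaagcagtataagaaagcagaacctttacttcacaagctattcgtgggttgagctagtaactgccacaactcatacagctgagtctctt
Siglech, chr7:55767934-55768233, plus strand: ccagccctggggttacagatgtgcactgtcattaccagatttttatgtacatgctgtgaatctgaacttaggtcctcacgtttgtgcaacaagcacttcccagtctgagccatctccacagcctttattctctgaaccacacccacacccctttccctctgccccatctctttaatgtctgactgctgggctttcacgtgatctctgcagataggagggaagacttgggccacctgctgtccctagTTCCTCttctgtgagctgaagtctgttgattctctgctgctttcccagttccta
Olfml3, chr3:103737952-103738251, minus strand: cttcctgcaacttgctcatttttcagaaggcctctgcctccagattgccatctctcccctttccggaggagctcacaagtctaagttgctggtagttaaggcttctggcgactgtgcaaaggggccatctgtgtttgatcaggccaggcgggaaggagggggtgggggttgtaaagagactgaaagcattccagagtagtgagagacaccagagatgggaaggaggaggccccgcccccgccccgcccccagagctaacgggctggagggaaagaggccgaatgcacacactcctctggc
The match in P2ry12 was AGGAAGT beginning at position -52 from the start, that in P2ry13 GAGGAA at -48, and that in Siglech GAGGAA on the opposite strand at -4. Fcrls had both motifs and Sall1 had AGGAAGT in 1 of its promoters, so 5 of 7 genes held either motif. Of all 32851 promoters of this length, 28.28% held GAGGAA, 9.351% AGGAAGT and 32.66% either. These shares count single promoters, whereas a gene was counted if any of its promoters matched, so the count and the shares are not alike. A match is a run of letters and does not show binding, and no match in Olfml3 or Cx3cr1 concerns these windows alone.

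The question behind the tumor comparisons was how the resting microglia genes stood in tumors whose general myeloid genes had risen. In each of the 5 tumor groups 8 to 10 of 10 pan-myeloid genes rose, while 0 to 2 of the 9 resting microglia genes passed the test. The shares of all genes passing it were 27.8% in GFAP cortex, 38.7% in SYN1 cortex and 41.4% in GFAP hippocampus tumors. They were 8.56% in NES hippocampus and 37.6% in GFAP SVZ tumors. The count of the 9 genes depended on the settings of the fit. Array weights make an array far from its group count less, which moves the estimates as well as their spread. The P2ry12 estimate in GFAP cortex tumors was -0.02 without weights and 0.52 with them. With array weights 7 of 9 genes were called higher in GFAP cortex tumors and 9 of 9 in NES hippocampus tumors. Weights raised the count in the other tumor groups as well, as given in the last section. With only the compared arrays in the fit 7 of 9 were called higher in NES tumors. The shares of all genes called under these settings are not given here, so these counts do not show whether the 9 genes stand apart. The median log2 difference of the 9 genes was 0.35 in GFAP cortex tumors, 0.02 in SYN1 cortex tumors, 0.36 in GFAP hippocampus tumors, 0.69 in NES hippocampus tumors and -0.15 in GFAP SVZ tumors, each against normal brain. Without the 4 arrays that stood apart the median was 0.77 in GFAP cortex tumors and 0.27 in GFAP hippocampus tumors. The median of all 19938 genes lay between -0.10 and -0.003 in these comparisons. For the 10 pan-myeloid genes the medians were 1.71, 1.77, 1.68, 1.88 and 2.06 in the same order of tumor groups.

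Set beside that rise, all 9 estimates lay below the pan-myeloid median in each of the 5 comparisons. The 95% interval of the fit lay wholly below it for 7 of 9 genes in GFAP cortex tumors, 9 in SYN1 cortex tumors, 9 in GFAP hippocampus tumors, 7 in NES hippocampus tumors and 9 in GFAP SVZ tumors. The median of all genes, given above, lay far below the pan-myeloid median in each comparison, so most genes lie below it too. The share of all genes is not given for the estimates or the intervals, and these counts do not set the resting microglia genes apart. When each array's pan-myeloid score was subtracted before the fit, 7, 9, 9, 7 and 9 of 9 genes were called lower, in the same order of tumor groups. That count does not set the resting microglia genes apart: the share of all genes called lower in the same test was 92.3% in GFAP cortex tumors, 89.0% in SYN1 cortex tumors, 94.5% in GFAP hippocampus tumors, 95.1% in NES hippocampus tumors and 92.5% in GFAP SVZ tumors.

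**Figure D1:**
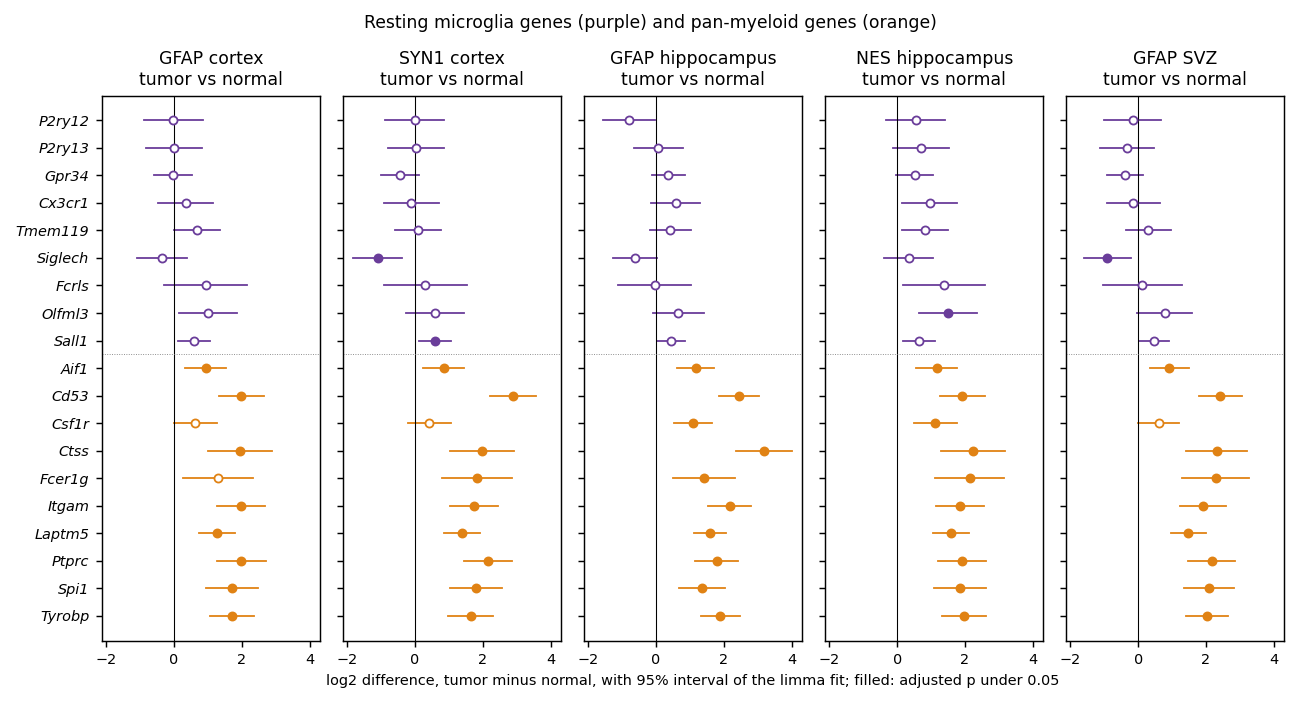
Log2 difference between tumor and normal brain (x axis) with the 95% interval of the limma fit, for the 9 resting microglia genes (purple) and 10 pan-myeloid genes (orange), 1 panel for each tumor group; filled points had adjusted p under 0.05. The orange points lie between 0.42 and 3.18 and most are filled, while the purple points lie between -1.10 and 1.51 and 4 of them over all panels are filled.

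Of the receptor genes, P2ry12 encodes the purinergic receptor by which microglial processes move towards ADP released from damaged cells. In the cortex its log2 signal was 7.18, 8.72, 9.40 and 8.90 in GFAP tumors and 8.48, 8.38, 8.64 and 8.73 in SYN1 tumors, against 8.60, 8.53, 8.43 and 8.72 in normal cortex. GFAP cortex tumor 1 lay far below the other 3, which lay near or above the highest normal value, and SYN1 tumors overlapped normal cortex. In the hippocampus it was 6.51, 7.88 and 9.18 (lowest, median and highest) in 7 GFAP tumors and 8.94, 9.32, 9.44 and 8.96 in NES tumors, against 8.87, 8.46, 8.58 and 8.56 in normal hippocampus. All 4 NES tumors exceeded all 4 normal samples, whereas the GFAP tumors spread to both sides. GFAP SVZ tumors held 8.25, 8.67 and 8.37.

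With all arrays P2ry12 was not called in any comparison of tumor with normal brain. Its estimated log2 difference came to -0.02 ± 0.42 (SE of the fit) in GFAP cortex tumors, -0.01 ± 0.42 in SYN1 cortex tumors, -0.79 ± 0.37 in GFAP hippocampus tumors, 0.54 ± 0.42 in NES hippocampus tumors and -0.17 ± 0.40 in GFAP SVZ tumors. With array weights it was called higher in GFAP cortex tumors (0.52, adjusted p = 0.0331 by limma) and in NES tumors (0.63, 0.0084), and in NES tumors also with only the compared arrays (0.54, 0.0347). The 4 arrays that stood apart held the 4 lowest P2ry12 values of the 30, with 7.18 the highest among them and 7.88 the lowest of the other 26. Without them the estimate came to 0.44 ± 0.21 for GFAP cortex tumors (adjusted p by limma 0.113) and -0.07 ± 0.20 in GFAP hippocampus tumors (adjusted p = 0.783). In GFAP hippocampus tumors P2ry12 was called lower when tumor 2 was left out (-1.01, adjusted p = 0.0212) or tumor 3 (-0.93, adjusted p = 0.0489), and the adjusted p ran from 0.0212 to 0.868 over all alternatives. No other of the 9 genes had its 4 lowest values in these arrays: Gpr34 had its highest value of all 30 arrays in one of them.

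NES and GFAP tumors of the hippocampus differed in P2ry12, which was the 1 gene of the 9 called between them, against 8.21% of all genes. P2ry12 averaged 9.16 ± 0.25 in NES tumors and 7.83 ± 0.99 in GFAP tumors (SD, n = 4 and 7), a difference of 1.33 ± 0.37 on the log2 scale, or 2.52-fold (limma adjusted p = 0.0334). The highest GFAP value, 9.18, lay within the NES range. With GFAP hippocampus tumors 1 to 4 alone the difference was 0.61 (adjusted p = 0.177), and without all 4 arrays that stood apart it was 0.61 with adjusted p = 0.0316; over all alternatives the adjusted p ran from 0.0074 to 0.177. The call also ended when GFAP tumor 1, 6 or 7 or NES tumor 2, 3 or 4 was left out, with values from 1.11 to 1.40 and adjusted p from 0.0513 to 0.157. It ended too with the replicate number as a block (0.61, adjusted p = 0.148) and with only the compared arrays in the fit (1.33, adjusted p = 0.161). P2ry12 is also a platelet gene: of 7 platelet genes none was called between these groups, and their mean score lay between -0.21 and 0.18 in NES tumors and between -0.28 and 0.48 in GFAP tumors. Their part in the result was not tested.

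P2ry13, the second ADP receptor of microglia, is the neighbour of P2ry12 and shared its low values in only some of the arrays that stood apart: GFAP cortex tumor 1 had the lowest P2ry13 of the 30 arrays, at 7.75. Its mean was 9.32 ± 1.14 in GFAP cortex tumors and 9.33 ± 0.66 in SYN1 cortex tumors, against 9.31 ± 0.11 in normal cortex (SD, n = 4 each). It was 9.42 ± 0.48 in GFAP hippocampus tumors (n = 7), 10.05 ± 0.30 in NES hippocampus tumors (n = 4), 9.002 ± 0.78 in GFAP SVZ tumors (n = 3) and 9.35 ± 0.23 in normal hippocampus (n = 4). The differences from normal ran from -0.33 in GFAP SVZ tumors to 0.69 ± 0.40 in NES tumors, and none was called. In NES tumors P2ry13 was called with only the compared arrays (0.69, adjusted p = 0.0243 by limma) and with array weights (0.83, 0.00257), and in GFAP cortex tumors with weights (0.70, 0.0132). GFAP hippocampus tumors 5 and 6, which had 7.05 and 7.07 for P2ry12, had 9.21 and 9.44 for P2ry13, inside the range of normal hippocampus (9.13 to 9.67). Over the 22 tumor arrays the correlation of the 2 genes was 0.64, and over the 18 without those that stood apart 0.73.

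Gpr34 encodes a receptor for lysophosphatidylserine. Gpr34 averaged 6.22 ± 0.47 in GFAP cortex tumors and 5.82 ± 0.32 in SYN1 cortex tumors, against 6.25 ± 0.11 in normal cortex. It averaged 6.54 ± 0.50 in GFAP hippocampus tumors, 6.69 ± 0.37 in NES hippocampus tumors and 5.82 ± 0.56 in GFAP SVZ tumors, against 6.18 ± 0.07 in normal hippocampus. With all arrays no difference from normal was called; the estimates ran from -0.44 ± 0.27 in SYN1 cortex tumors to 0.51 ± 0.27 in NES hippocampus tumors. In SYN1 tumors Gpr34 was called lower with only the compared arrays (-0.44, adjusted p = 0.0385 by limma) and with array weights (-0.45, 0.0387), and the adjusted p ran from 0.0385 to 0.423 over the alternatives. In NES tumors it was called higher with weights (0.67, 0.000718), within a range of 0.000718 to 0.471. GFAP SVZ and GFAP hippocampus tumors differed by -0.73 ± 0.26 (unadjusted p = 0.00994), which did not pass the adjustment (limma adjusted p = 0.198).

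Cx3cr1 encodes the receptor for fractalkine, a ligand that neurons display and that in mouse holds microglia in check. In the cortex Cx3cr1 was 8.40, 9.97, 10.39 and 9.92 in GFAP tumors and 10.04, 9.04, 8.02 and 9.73 in SYN1 tumors, against 9.43, 9.27, 9.31 and 9.28 in normal cortex. Tumor values fell to both sides of the narrow normal range. In the hippocampus it was 9.40, 9.66 and 10.38 (lowest, median and highest) in GFAP tumors and 9.97, 10.74, 10.35 and 9.91 in NES tumors, against 9.65, 9.18, 9.19 and 9.13 in normal hippocampus. All NES values lay above all normal ones, with a difference of 0.96 ± 0.40 that did not pass the test (limma adjusted p = 0.144), but did with only the compared arrays (adjusted p = 0.0127) and with array weights (1.27, 3.21e-05). With weights Cx3cr1 was also called higher in GFAP cortex tumors (0.82, adjusted p = 0.00459). Of the other estimates, the highest was 0.58 ± 0.35 in GFAP hippocampus tumors and the lowest -0.15 ± 0.38 in GFAP SVZ tumors.

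The ligand of this receptor fell in 4 of the 5 tumor groups. Cx3cl1, which encodes fractalkine, fell by 2.24 ± 0.36 on the log2 scale in GFAP cortex tumors (adjusted p = 0.000104 by limma), by 3.07 ± 0.36 in SYN1 cortex tumors (6.75e-07), by 2.27 ± 0.32 in GFAP hippocampus tumors (5.21e-06) and by 2.95 ± 0.34 in GFAP SVZ tumors (9.29e-07). In NES hippocampus tumors the estimate for Cx3cl1 was -0.85 ± 0.36 and did not pass the test (adjusted p = 0.158). The difference in Cx3cl1 between NES and GFAP hippocampus tumors was itself called, at 1.42 ± 0.32 (adjusted p = 0.0175). Neuron markers moved beside it: 8 of 12 fell in GFAP cortex tumors, 10 in SYN1 cortex tumors, 8 in GFAP hippocampus tumors, 10 in GFAP SVZ tumors and none in NES tumors. Their part in the fall of Cx3cl1 was not tested.

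**Figure D2:**
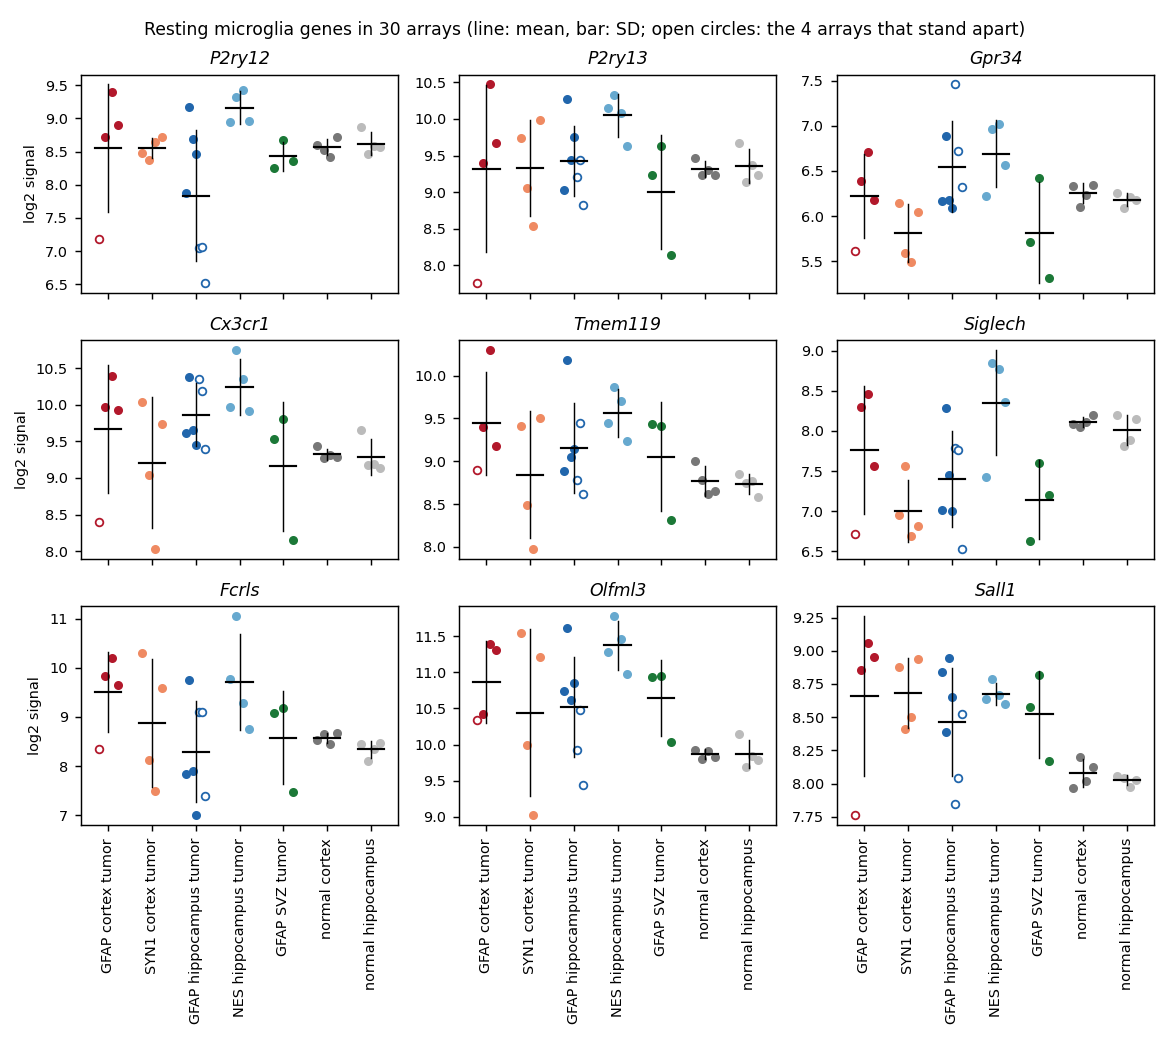
Log2 signal (y axis) of each of the 9 resting microglia genes in every array, by group, with a line at the group mean and a bar of 1 SD; open circles are the 4 arrays that stood apart. The 8 normal arrays lie close together for each gene and the tumor arrays spread widely, for P2ry12 from 6.51 to 9.44; the open circles are the lowest points for P2ry12 and not for Gpr34.

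Of the surface proteins, Tmem119 is the marker most often used to tell microglia from other brain macrophages. Tmem119 was 8.89, 9.40, 10.29 and 9.18 in GFAP cortex tumors and 9.42, 8.49, 7.97 and 9.50 in SYN1 cortex tumors, against 9.003, 8.79, 8.62 and 8.65 in normal cortex. It was 8.62, 9.05 and 10.18 (lowest, median and highest) in GFAP hippocampus tumors and 9.45, 9.87, 9.70 and 9.23 in NES hippocampus tumors, against 8.85, 8.74, 8.77 and 8.58 in normal hippocampus. NES tumors lay above all normal samples, and the other tumor groups overlapped them. The estimates were 0.68 ± 0.33 in GFAP cortex tumors, 0.08 ± 0.33 in SYN1 cortex tumors, 0.42 ± 0.30 in GFAP hippocampus tumors, 0.83 ± 0.33 in NES hippocampus tumors and 0.30 ± 0.32 in GFAP SVZ tumors. None was called (limma adjusted p of 0.132 or more). With array weights Tmem119 was called higher in GFAP cortex (1.04), NES hippocampus (1.02) and GFAP SVZ tumors (0.59, adjusted p = 0.0249), and in NES tumors with only the compared arrays as well (adjusted p = 0.00605).

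Siglech encodes a sialic acid-binding lectin that signals through the adaptor DAP12, and it is the 1 gene of the 9 that fell in more than 1 tumor group. In the cortex Siglech was 6.95, 7.57, 6.70 and 6.81 in SYN1 tumors and 6.71, 8.30, 8.45 and 7.57 in GFAP tumors, against 8.08, 8.04, 8.11 and 8.19 in normal cortex. Every SYN1 tumor lay below every normal sample, and the GFAP tumors overlapped them. GFAP SVZ tumors held 6.63, 7.60 and 7.20, below all 8 normal samples, whose lowest was 7.81. In the hippocampus it was 6.53, 7.45 and 8.29 (lowest, median and highest) in GFAP tumors and 7.43, 8.84, 8.78 and 8.36 in NES tumors, against 8.20, 7.81, 7.89 and 8.15 in normal hippocampus, so both tumor groups overlapped the normal one.

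Siglech and Sall1 were the 2 of 9 genes called in SYN1 cortex tumors, where 38.7% of all genes were called. Siglech fell by 1.10 ± 0.35 on the log2 scale, to 2.15-fold lower signal (limma adjusted p = 0.0143), and the call held under each of the 16 alternatives, with adjusted p from 0.000388 to 0.0451. No overlap with normal cortex, seen for Siglech, held in the lower direction for 25.9% of all genes, and for Sall1 in the higher direction for 23.1%. In GFAP SVZ tumors Siglech was the 1 gene of 9 called, against 37.6% of all genes, with a fall of 0.92 ± 0.34 (adjusted p = 0.0339, and 0.000414 to 0.224 over the alternatives); 23.2% of all genes lay below all normal samples there. That call ended without SVZ tumor 1 (-0.66, adjusted p = 0.224), SVZ tumor 3 (-0.94, 0.0744), normal hippocampus 1 (-0.88, 0.0521) or normal hippocampus 4 (-0.89, 0.0501). In GFAP hippocampus tumors the estimate was -0.61 ± 0.31 (adjusted p = 0.122), and it was called without tumor 2 (-0.76, adjusted p = 0.0488). In GFAP cortex tumors it was -0.35 ± 0.35 and in NES hippocampus tumors 0.34 ± 0.35, neither called. With array weights Siglech was called lower in GFAP hippocampus tumors (-0.59, adjusted p = 0.0488) and higher in NES tumors (0.64, adjusted p = 0.0131).

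In the same tumors the partner of this lectin rose. Tyrobp, which encodes DAP12, rose by 1.70 in GFAP cortex tumors, 1.64 in SYN1 cortex tumors, 1.89 in GFAP hippocampus tumors, 1.98 in NES hippocampus tumors and 2.03 in GFAP SVZ tumors, with limma adjusted p from 1.1e-05 to 0.000409. Other cells also carry Siglech: plasmacytoid dendritic cells do, and of 10 of their genes 3 rose and 2 fell in SYN1 cortex tumors as in GFAP SVZ tumors. The score of those 10 genes lay between -0.09 and 0.23 in SYN1 cortex tumors and between -0.03 and 0.22 in GFAP SVZ tumors, against -0.01 to 0.09 in normal cortex and -0.13 to 0.00 in normal hippocampus. The part of these cells in the fall of Siglech was not tested.

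Across tumors Siglech was high where markers of other brain cells were high. Over the 22 tumor arrays the Pearson correlation of Siglech was 0.90 with the mean of 8 oligodendrocyte genes, 0.85 with neuron genes, 0.82 with astrocyte genes, 0.61 with other homeostatic microglia genes and 0.17 with pan-myeloid genes. Over the 18 arrays without those that stood apart it was 0.94, 0.88, 0.92, 0.58 and 0.02. Gpr34 had 0.77, 0.68, 0.75, 0.53 and 0.29 over the 22 arrays in the same order. Over the 18 arrays Gpr34 had 0.788, 0.693, 0.716, 0.796 and 0.315. There, unlike Siglech, it correlated with other homeostatic microglia genes as highly as with oligodendrocyte genes. With oligodendrocyte, neuron and astrocyte genes over the 22 arrays Cx3cr1 correlated at 0.725, 0.665 and 0.693 and P2ry13 at 0.645, 0.611 and 0.6. Sall1 was lowest of the 9, at 0.134, 0.252 and 0.132. These points share tumor groups and the amount of brain left in each piece, so the values are a description. All 8 oligodendrocyte genes fell in SYN1 cortex tumors and 7 of 8 in GFAP SVZ tumors. Their score lay between -2.92 and -1.56 in SYN1 cortex tumors and between -2.70 and -1.37 in GFAP SVZ tumors, against -0.15 to 0.17 in normal cortex and -0.14 to 0.15 in normal hippocampus. Their part in the result was not tested.

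**Figure D3:**
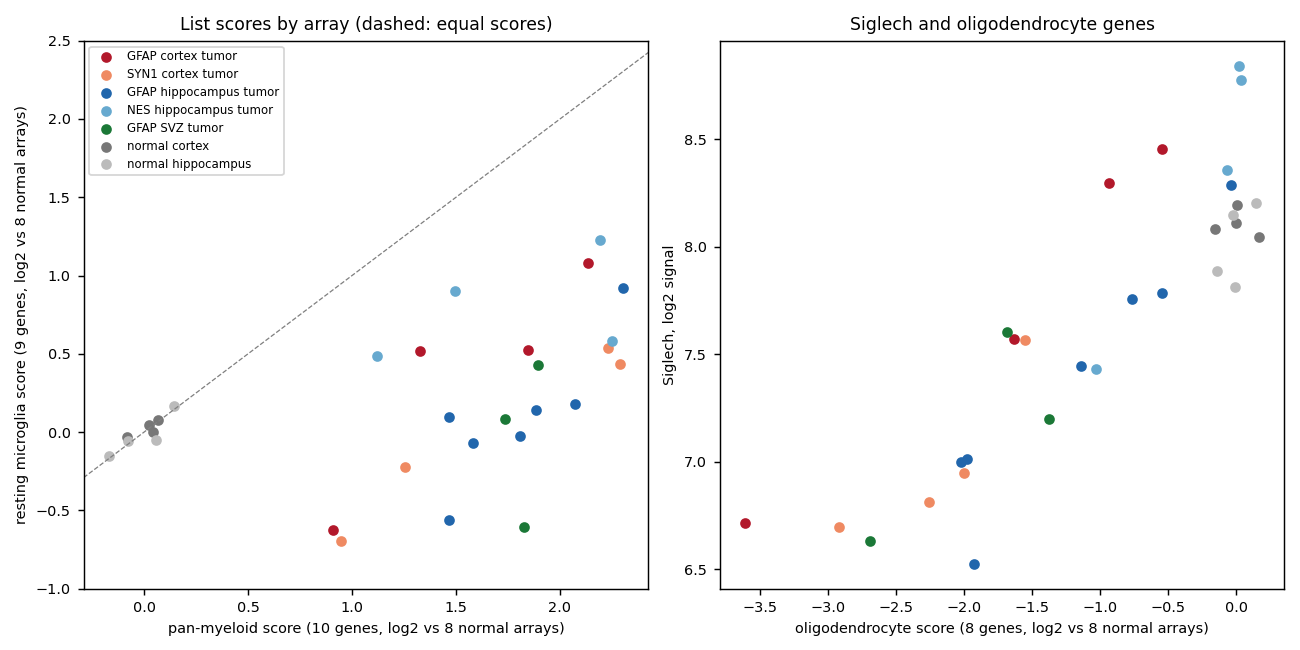
Left, mean log2 difference of the 9 resting microglia genes from the 8 normal arrays (y axis) against that of 10 pan-myeloid genes (x axis), 1 point for each array and a dashed line where both are equal. Right, Siglech log2 signal (y axis) against the score of 8 oligodendrocyte genes (x axis). Every tumor array lies below the dashed line, with pan-myeloid scores from 0.91 to 2.30 and resting microglia scores from -0.70 to 1.23, and Siglech is low where the oligodendrocyte score is low.

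Fcrls encodes an Fc receptor-like surface protein that in mouse brain is carried by microglia, and its spread over tumors was wide. Fcrls averaged 9.51 ± 0.81 in GFAP cortex tumors and 8.88 ± 1.30 in SYN1 cortex tumors, against 8.58 ± 0.10 in normal cortex. In NES hippocampus tumors it was 9.77, 11.05, 9.29 and 8.76, and in GFAP hippocampus tumors 6.999, 7.89 and 9.76 (lowest, median and highest), against 8.44, 8.10, 8.34 and 8.48 in normal hippocampus. All NES tumors lay above the normal samples, and of the 7 GFAP tumors 4 lay below and 3 above all of them. The difference from normal was 1.37 ± 0.59 in NES tumors (limma adjusted p = 0.165, and 0.0485 with only the compared arrays) and -0.05 ± 0.52 in GFAP hippocampus tumors (adjusted p = 0.954). Over all alternatives the adjusted p in NES tumors ran from 5.23e-05 to 0.439. The difference was 0.93 ± 0.59 in GFAP cortex tumors (adjusted p = 0.271, and 0.00578 to 0.497 over the alternatives). In SYN1 cortex tumors the difference was 0.305 ± 0.59 and in GFAP SVZ tumors 0.12 ± 0.57, neither called. Between the NES and GFAP tumors it was 1.42 ± 0.52 (adjusted p = 0.081), and it was called when GFAP tumor 2 was left out (1.66, adjusted p = 0.0344) or all 4 arrays that stood apart (1.59, adjusted p = 0.047).

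Olfml3 encodes a secreted olfactomedin-like glycoprotein, and it was the 1 gene of the 9 called in NES hippocampus tumors, where 8.56% of all genes were called. Olfml3 was 11.28, 11.78, 11.46 and 10.97 in NES tumors and 9.44, 10.62 and 11.61 (lowest, median and highest) in GFAP hippocampus tumors, against 10.14, 9.69, 9.84 and 9.78 in normal hippocampus. NES tumors were well above all normal samples. The rise was 1.51 ± 0.42 on the log2 scale, or 2.85-fold (limma adjusted p = 0.0219). It was no longer called without NES tumor 1 or 2 or normal hippocampus 2, 3 or 4, where the value stayed between 1.38 and 1.54 and the adjusted p between 0.0515 and 0.0742; over all alternatives it ran from 1.38e-06 to 0.0742. In the cortex Olfml3 was 10.34, 10.43, 11.39 and 11.31 in GFAP tumors and 11.55, 9.99, 9.02 and 11.21 in SYN1 tumors, against 9.93, 9.80, 9.91 and 9.83 in normal cortex, and GFAP tumors lay above all normal samples, as did 13.3% of all genes.

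The other Olfml3 estimates were 1.00 ± 0.42 in GFAP cortex tumors (limma adjusted p = 0.0766), 0.58 ± 0.42 in SYN1 cortex tumors, 0.66 ± 0.37 in GFAP hippocampus tumors and 0.78 ± 0.40 in GFAP SVZ tumors, none of them called. Without the 4 arrays that stood apart it was called at 1.17 ± 0.41 in GFAP cortex tumors (adjusted p = 0.0301) and 1.09 ± 0.38 in GFAP hippocampus tumors (adjusted p = 0.0185). In SYN1 cortex tumors it was called without tumor 3 (1.05, adjusted p = 0.0342). With array weights Olfml3 was called in every tumor group but SYN1. Pericytes and fibroblasts also make Olfml3: none of 12 of their genes was called in NES tumors, and their score lay between 0.16 and 0.99 in NES tumors against -0.02 to 0.17 in normal hippocampus. Over 22 tumor arrays Olfml3 correlated at 0.31 with that score and at 0.68 with the pan-myeloid score. Over the 18 without those that stood apart the values were 0.565 and 0.724. The part of these cells was not tested.

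Sall1 encodes a zinc finger transcription factor that in mouse is needed for microglial identity, and it rose in SYN1 cortex tumors. Sall1 was 8.88, 8.41, 8.50 and 8.94 in SYN1 tumors and 7.76, 8.85, 9.06 and 8.95 in GFAP cortex tumors, against 7.97, 8.20, 8.02 and 8.13 in normal cortex. All 4 SYN1 tumors and GFAP tumors 2 to 4 lay above all normal samples, and GFAP tumor 1 below them. In the hippocampus it was 8.64, 8.79, 8.67 and 8.60 in NES tumors and 7.84, 8.52 and 8.95 (lowest, median and highest) in GFAP tumors, against 8.06, 8.04, 7.97 and 8.03 in normal hippocampus. NES tumors lay above all normal samples; of the GFAP tumors, 1 lay below them and 1 among them.

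The rise of Sall1 in SYN1 cortex tumors was 0.60 ± 0.23 on the log2 scale, or 1.52-fold (limma adjusted p = 0.039), and was no longer called without normal cortex 1, 3 or 4 or SYN1 tumor 1 or 4 (values from 0.52 to 0.62, adjusted p from 0.0604 to 0.118); over all alternatives the adjusted p ran from 0.000414 to 0.118. The estimates in the other groups were 0.58 ± 0.23 in GFAP cortex tumors (adjusted p = 0.0625), 0.44 ± 0.20 in GFAP hippocampus tumors (0.0872), 0.65 ± 0.23 in NES hippocampus tumors (0.0814) and 0.47 ± 0.22 in GFAP SVZ tumors (0.1). Leaving out GFAP cortex tumor 1 gave 0.88 in GFAP cortex tumors (adjusted p = 0.00297), and leaving out GFAP hippocampus tumor 5 gave 0.54 in GFAP hippocampus tumors (0.0262), both called. Without all 4 arrays that stood apart Sall1 was called in each of the 5 comparisons, at 0.88, 0.60, 0.68, 0.65 and 0.47 in GFAP cortex, SYN1 cortex, GFAP hippocampus, NES hippocampus and GFAP SVZ tumors, with adjusted p from 0.000144 to 0.00433. With array weights it was called in each of the 5 as well.

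Neural progenitors also carry Sall1. Of 9 progenitor genes 3 rose and 3 fell in SYN1 cortex tumors, and their score lay between 0.20 and 0.55 in these tumors, against -0.03 to 0.05 in normal cortex. Nes, the progenitor filament gene, was among those that rose in SYN1 cortex tumors, by 3.73 ± 0.49, and it is part of the score. The 3 that fell are part of it as well, so the score does not show a rise of progenitor genes as a group. Over the 22 tumor arrays Sall1 correlated at 0.82 with the progenitor score and at 0.40 with the pan-myeloid score, and over 18 arrays at 0.47 and 0.30. The part of progenitor-like cells in the rise of Sall1 was not tested.

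In GFAP cortex tumors 0 of 9 genes were called by limma, against 27.8% of all genes. In them 2 had unadjusted p under 0.05 (Sall1 and Olfml3), as had 37.0% of all genes. In GFAP hippocampus tumors 0 of 9 were called, against 41.4%, and 2 had unadjusted p under 0.05 (P2ry12 and Sall1), as had 48.9% of all genes. In NES hippocampus tumors all 9 estimates were above 0, from 0.34 to 1.51, and for 6 genes (P2ry12, Tmem119, Cx3cr1, Sall1, Olfml3 and Fcrls) every tumor exceeded every normal sample, which held for 13.6% of all genes. In NES tumors 5 of the 9 had unadjusted p under 0.05, as had 21.9% of all genes, and 1 passed the adjustment. The number passing was 7 with only the compared arrays, 9 with array weights, 2 with the replicate block or without the 4 arrays that stood apart, and 0 to 1 when single arrays were left out. The shares of all genes passing under these settings are not given here. The remaining contrasts called 0 of 9 genes: SYN1 against GFAP cortex tumors (0.176% of all genes called), GFAP hippocampus against GFAP cortex tumors (2.68%), GFAP SVZ against GFAP cortex tumors (0.00502%), GFAP SVZ against GFAP hippocampus tumors (0.316%), the 2 normal tissues, hippocampus against cortex (1.29%), and the hippocampus-minus-cortex difference of the GFAP tumor change (0.838%). By limma 1, 1, 0, 1, 0 and 0 of the 9 had unadjusted p under 0.05 in these 6 contrasts. The shares of all genes were 14.7%, 18%, 10.5%, 15.2%, 5.74% and 10.6% in the same order.

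Unadjusted p under 0.05 in those contrasts was reached by Siglech between SYN1 and GFAP cortex tumors (-0.75 ± 0.35, and called without the 4 arrays that stood apart at -1.10, adjusted p = 0.0286), by Fcrls between GFAP hippocampus and GFAP cortex tumors (-1.21 ± 0.52) and by Gpr34 as given above. P2ry12 was called lower in GFAP hippocampus than in GFAP cortex tumors when cortex tumor 1 was left out (-1.18, limma adjusted p = 0.0464), against -0.72 ± 0.37 with all arrays. Siglech was called between NES and GFAP hippocampus tumors without GFAP tumor 2 (1.10, adjusted p = 0.0226), GFAP tumor 5 (1.01, 0.0389) or NES tumor 1 (1.26, 0.0108), against 0.95 ± 0.31 with all arrays (0.057). Normal hippocampus and normal cortex lay within 0.24 of each other for all 9 genes.

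Group means in order put NES hippocampus tumors first for 8 of the 9 genes, with Sall1 the exception, at 8.67 in NES and 8.68 in SYN1 cortex tumors. Without the 4 arrays that stood apart NES tumors led for 6 genes and GFAP cortex tumors for 3, namely Tmem119 (9.63 in GFAP cortex and 9.56 in NES tumors), Fcrls (9.89 and 9.71) and Sall1 (8.96 and 8.67). With all arrays the lowest group mean was that of GFAP SVZ tumors for P2ry13 and Cx3cr1, of SYN1 cortex tumors for Siglech and Gpr34, of GFAP hippocampus tumors for P2ry12 and Fcrls and of normal hippocampus for Tmem119, Olfml3 and Sall1. Without the 4 arrays the lowest P2ry12 mean was that of GFAP SVZ tumors (8.43), with 8.55 in GFAP hippocampus tumors. Gpr34 had means of 5.82 in both SYN1 cortex and GFAP SVZ tumors. Neighbouring means mostly differed by less than the SD within groups.

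The 9 genes also varied together over tumors to unequal degrees. Over the 22 tumor arrays, the correlation of a gene with the mean of the other 8 was 0.89 for P2ry13, 0.88 for Tmem119, 0.84 for Cx3cr1, 0.82 for Olfml3, 0.77 for Fcrls, 0.70 for Siglech, 0.62 for Gpr34, 0.58 for P2ry12 and 0.47 for Sall1. Cx3cr1 and Gpr34 were the closest pair at 0.87, followed by Tmem119 and Olfml3 at 0.86. Sall1 and Gpr34 were the least alike at 0.04. P2ry12 and Gpr34, both G protein-coupled receptors, correlated at 0.10 over 22 arrays and at 0.76 over the 18 without those that stood apart. These arrays share tumor groups and tissue make-up, and no test was made of the correlations.

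**Figure D4:**
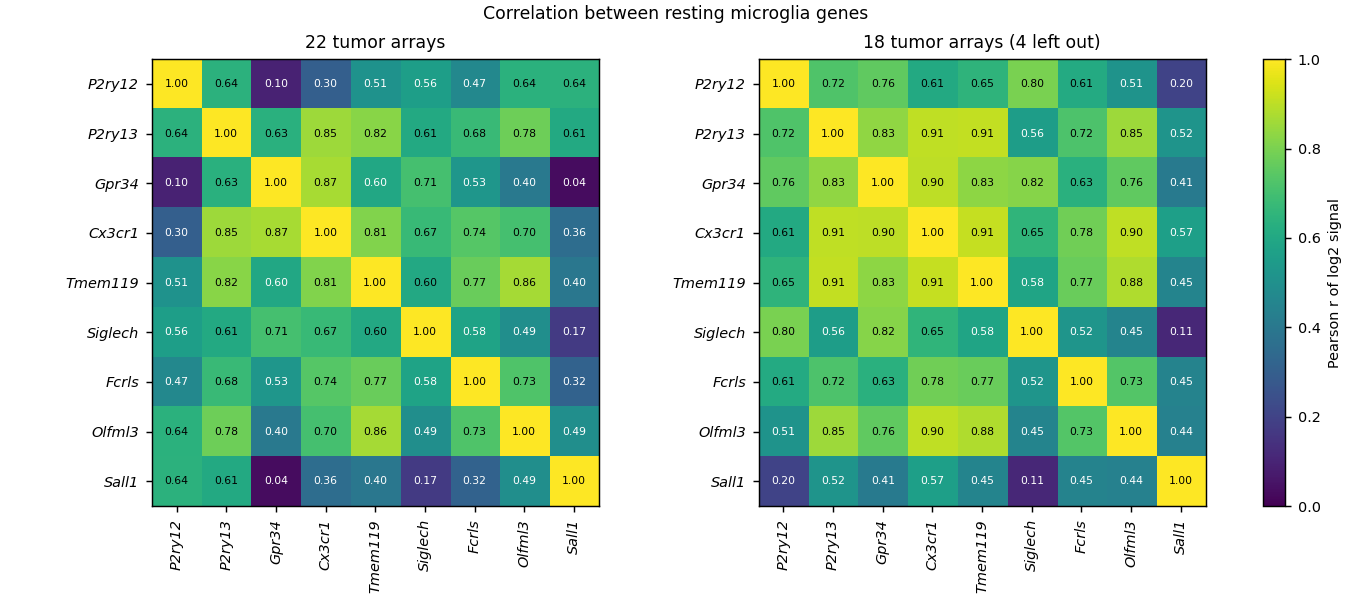
Pearson correlation of log2 signal (colour, 0 to 1) between each pair of the 9 resting microglia genes, over 22 tumor arrays on the left and over 18 without the 4 that stood apart on the right. P2ry13, Cx3cr1 and Tmem119 form the brightest block on both sides, Sall1 and Gpr34 make the darkest cell on the left, and the pair of P2ry12 and Gpr34 goes to 0.76 on the right, against 0.10 on the left.

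Among genes outside the 9, those most like their mean deviation over the 22 tumor arrays were Selplg (r = 0.93), Hpgds (0.92), Slc9a9 (0.89), Ttll5 (0.89), Rassf2 (0.89), Bin2 (0.88), Lrch1 (0.88), Sec14l1 (0.88), Gjc3 (0.87) and Dock10 (0.87). Selplg encodes the ligand of P-selectin and Hpgds the haematopoietic prostaglandin D synthase. Over 18 arrays all 10 stayed at 0.85 or more. Over all 30 arrays, normal brain included, they ran from 0.38 for Sec14l1 to 0.92 for Selplg.

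Genes that maintain the resting programme (transcription factors, the CSF1 receptor and the TGF-beta pathway) were divided. Of 14 measured, 5 rose and 1 fell in GFAP cortex tumors, 7 and 2 in SYN1 cortex tumors, 8 and 2 in GFAP hippocampus tumors, 7 and 0 in NES hippocampus tumors and 7 and 2 in GFAP SVZ tumors. Their median log2 difference was 0.50, 0.51, 0.53, 0.62 and 0.63 in the same order. Of all 19938 genes, 1794, 3627, 3213, 1135 and 3236 rose in these comparisons. Runx1, a factor of blood and myeloid cells, rose by 2.98, 3.54, 2.70, 2.12 and 3.17. Spi1 rose by 1.36 to 2.08, Irf8 by 1.27 to 1.38 and Tgfbr2, the type II TGF-beta receptor, by 1.16 to 1.68 over the 5 groups. Mef2c, a factor that neurons carry as well, fell by 2.22 in GFAP cortex, 2.94 in SYN1 cortex, 1.12 in GFAP hippocampus and 2.49 in GFAP SVZ tumors, and its estimate was 0.19 ± 0.46 in NES tumors. Csf1r, the receptor on which microglia depend, rose by 1.09 ± 0.27 in GFAP hippocampus tumors and 1.13 ± 0.31 in NES tumors, and the other estimates (0.63, 0.42 and 0.60 in GFAP cortex, SYN1 cortex and GFAP SVZ tumors) were not called.

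A second list of 10 measured genes held 4 ligands (Cx3cl1, Tgfb1, Csf1 and Il34), 2 enzymes that break down purines (Entpd1 and Nt5e) and 4 other purine or UDP-sugar receptors (P2rx4, P2rx7, P2ry6 and P2ry14). In it 6 rose and 2 fell in GFAP cortex tumors, 8 and 1 in SYN1 cortex tumors, 5 and 1 in GFAP hippocampus tumors, 5 and 0 in NES hippocampus tumors and 8 and 2 in GFAP SVZ tumors. Tgfb1, the TGF-beta gene, rose by 1.55 ± 0.47, 2.62 ± 0.47, 1.47 ± 0.42, 1.58 ± 0.47 and 2.47 ± 0.45 in that order. Il34, a CSF1 receptor ligand made by neurons, fell by 0.58 in GFAP cortex tumors and 0.71 in GFAP SVZ tumors and was not called elsewhere. Entpd1, whose product removes the ATP and ADP that P2ry12 and P2ry13 sense, rose by 1.06 to 1.68 in all 5 groups. Nt5e, whose product makes adenosine from AMP, rose by 1.61 to 3.66 in all but NES tumors, where the estimate was 1.32 ± 0.57 (limma adjusted p = 0.166).

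Other genes counted as resting microglia genes in earlier profiles divided. Of 20 measured, 9 rose and 2 fell in GFAP cortex tumors, 8 and 2 in SYN1 cortex tumors, 10 and 2 in GFAP hippocampus tumors, 9 and 0 in NES hippocampus tumors and 9 and 2 in GFAP SVZ tumors. Pros1, an anticoagulant protein that also bridges dying cells to their receptors, rose by 1.71 to 2.48 in the 5 groups. Sting1, a sensor of cytosolic DNA signals, rose by 1.76 to 2.32, and Rgs1, a regulator of G protein signalling in leukocytes, by 1.66 to 2.85. Gpr165, an orphan receptor gene, fell by 1.11 in GFAP cortex, 1.45 in SYN1 cortex and 1.35 in GFAP SVZ tumors and was not called in the hippocampus. Of 15 disease-associated microglia genes 10, 10, 12, 11 and 11 rose, and of 19 genes of monocyte-derived macrophages 13, 18, 11, 8 and 14 rose, in GFAP cortex, SYN1 cortex, GFAP hippocampus, NES hippocampus and GFAP SVZ tumors. All of these lists were chosen with earlier results of these data known, so the counts describe them and support nothing beyond.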

How the data were processed

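Values were log2 signal per probe set as the authors deposited them; Affymetrix Power Tools, MAS5 and RMA are listed, in no stated order, in the submitters' processing notes, and how arrays were normalized to each other is not given in the sources used here. Of 35556 probe sets, 21789 named 1 gene symbol, 1621 several and 12146 none; 21698 matched RefSeq (GRCm38.p6). The probe set with the highest mean over 30 arrays was kept for each gene, leaving 19938 genes, with no filter on low values and no further scaling. With limma 3.58.1 (R 4.3.3), 1 model of 7 group means gave 12 contrasts and 5 repeats after subtracting each array's pan-myeloid score; the code was tested on simulated data. A list score is the mean, over genes, of differences from the 8 normal arrays. The members, the 18 lists, the named genes (up to 4 called list members of largest difference, genes tied to a member by role, and the 10 most correlated genes) and all tests were chosen with earlier results of these data known. Equal replicate numbers were checked as pairs: only GFAP hippocampus against GFAP cortex tumors correlated above 0.1 in every pair (0.277 to 0.306). Alternatives changed scaling, filter, probe set, arrays, weights and block. Precision is limited by having 3 to 7 arrays per group.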

Additional observations from a re-analysis of the deposited data

Results flagged for a closer look

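In 54 sets of a gene and a group of 4 to 7 arrays, 2 held an array far from the rest of its group by Dixon's test; chance gives about 1 in 20. Cx3cr1 in normal hippocampus 1 was 9.65, above the other 3 normal samples. Sall1 in GFAP cortex tumor 1 was 7.76, below the other 3 GFAP cortex tumors, and this array is among the 4 that stood apart.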

How the results depend on the processing

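Over alternatives other than leaving out 1 array, 827 of 897 single-gene values kept direction and side of the threshold, 66 became called, 3 ceased to be called and 1 reversed; 61 differences called under neither setting changed sign. The reversal was P2ry12 in GFAP cortex tumors against normal cortex, at 0.52 (adjusted p = 0.0331) with array weights. The count of the 9 genes called moved as follows, given without the share of all genes called under each setting. In GFAP cortex tumors it was 0, and 2 with median centring, 3 with quantile normalization, 1 with only the arrays compared, 7 with array weights, 1 with the replicate block and 2 without the 4 arrays that stood apart. In SYN1 cortex tumors it was 2, and 3 with only the arrays compared or with weights, Gpr34 being added in both. In GFAP hippocampus tumors it was 0, and 1 with centring, 2 with quantile normalization, 3 with weights, 2 with the block, 2 without the 4 arrays and 2 with tumors 1 to 4 only. In NES hippocampus tumors it was 1, and 7 with only the arrays compared, 9 with weights, 2 with the block and 2 without the 4 arrays. In GFAP SVZ tumors it was 1, and 3 with centring, quantile normalization or only the arrays compared, 4 with weights and 2 without the 4 arrays. Between SYN1 and GFAP cortex tumors it was 0, and 3 with weights and 1 without the 4 arrays. Between NES and GFAP hippocampus tumors it was 1, and 2 with the 30% of genes of lowest mean left out (Gpr34 among them, so it had no value there), 0 with only the arrays compared, 0 with tumors 1 to 4 only, and 3 with weights or without the 4 arrays. Between GFAP SVZ and GFAP cortex tumors it was 0, and 1 with weights. The cause of these moves was not tested. The replicate block changed no other count, although between NES and GFAP hippocampus tumors P2ry12 was then no longer called (0.61, adjusted p = 0.148); it left GFAP hippocampus against GFAP cortex tumors, where the numbers paired, at 0. Leaving out 1 array gave ranges of 0 to 1 (GFAP cortex), 1 to 3 (SYN1 cortex), 0 to 2 (GFAP hippocampus), 0 to 1 (NES), 0 to 1 (GFAP SVZ), 0 to 3 (NES against GFAP hippocampus) and 0 to 1 (GFAP hippocampus against GFAP cortex), and 0 to 0 elsewhere. Relative to pan-myeloid genes the ranges were 7 to 7, 9 to 9, 9 to 9, 6 to 7 and 9 to 9 in GFAP cortex, SYN1 cortex, GFAP hippocampus, NES and GFAP SVZ tumors. List counts without the 4 arrays, chosen after seeing the data, stayed within 1.5 times, except the list of ligands, purine enzymes and purine receptors in NES tumors (8 against 5). Centring moved the median of all genes in NES tumors to -0.20, against -0.05 as deposited. Signal over background was not given, so its part in the precision of low-signal genes was not tested.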
